A study of Mus musculus with 7 samples.

Results

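The genes described here encode the proteins that hold, dock and fuse synaptic vesicles. They are 9 of the 25400 gene symbols that carry at least 1 peak of histone H3 lactylated at lysine 18 (H3K18La) in the mouse retina, and they were chosen by name: Vamp2, Stx3, Snap25, Syt1, Syp, Sv2b, Slc17a7, Syn1 and Syn2. Every peak annotated to one of these symbols was taken, which gave 117 of 108253 peaks. Of these, 10 were promoter peaks, and 8 of the 9 genes had at least 1; the single Syp peak lay in an exon. Where a gene had 2 promoter peaks (Snap25 and Sv2b), the peak nearest the transcription start site (TSS) was read first.

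A synaptic vesicle is filled with transmitter by a transporter in its membrane and is then held at the release site. It fuses when the SNARE protein on the vesicle (VAMP2, also called synaptobrevin) zips together with a syntaxin and SNAP25 on the cell membrane, and synaptotagmin senses the calcium that triggers this step. Photoreceptors and bipolar cells of the retina release glutamate from ribbon synapses, which use syntaxin 3 (Stx3) and load their vesicles through the vesicular glutamate transporter encoded by Slc17a7, whereas synapsins are known from the conventional synapses of the inner retina. Histone lactylation is a mark formed with lactate, and H3K18La has been described at active promoters and enhancers.

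H3K18La was profiled by CUT&Tag, a method that cuts DNA beside a mark bound by its antibody, in whole retina dissociated to single cells. The groups were C57Bl/6J mice at postnatal day 4 (P4, 2 libraries), day 10 (P10, 2 libraries) and day 28 (P28, 3 libraries), with no treatment or mutation in any of the 7 libraries. The labels placed P28 replicate 1 alone in batch 2. The study's methods call its replicates biological, but the labels do not say whether the libraries came from different animals or from pooled retinas, so p-values measure the spread between these libraries, which may be technical. The comparison asks how the mark at the vesicle genes changes as photoreceptors and their synapses mature.

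Depth set the precision. Reads in peaks ranged from 199970 in P10 replicate 1 to 8274373 in P28 replicate 2, and their share of the normalized library size was 16.3% to 17.6% at P4, 36.1% to 52.1% at P10 and 42.4% to 57.1% at P28. The deposited values are RPKM, which divide the reads by the peak's width and by that size. They are levels per length and can be compared between genes, but without allowance for copy number. Syp and Syn1 lie on chromosome X and the other genes on autosomes. Intervals given below are exact 95% binomial intervals on reads and cover counting error only. Most promoter peaks had a positive change from P4 to P28 (10538 of 11686), 3876 were called higher and 40 lower. The median change from P4 to P28, on the log2(RPKM + 1) scale used for every change below, was 1.33 over these peaks, 1 for each protein-coding gene that has one. Over all peaks, limma called 20488 gains and 4553 losses between P4 and P28 (81.8% of the calls were gains). With each library scaled to its reads in peaks instead, which moved the promoter median to 0.28, the calls were 7902 higher and 16845 lower (31.9% higher). They were 56.9% higher after median centring and 48.3% higher after quantile normalization.

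The promoter sequences are shown beside the mark. The RefSeq promoter table used here (GRCm38.p6) matched 7 of the 9 genes, all but Vamp2 and Snap25, and the 250 bases before the start are printed 5′ to 3′ for the 6 whose levels the results turn on: Syt1, the highest promoter, Sv2b and Slc17a7, with the largest changes from P4 to P28, Syp, whose promoter held no peak, and the synapsins, the lowest at P28. Capitals mark matches, on either strand, to GGGCGG (the GC box, read by Sp and KLF factors), TAATCC (the core read by CRX and OTX factors) or CACGTG (an E-box).
Syt1, chr10:109010976-109011225, minus strand: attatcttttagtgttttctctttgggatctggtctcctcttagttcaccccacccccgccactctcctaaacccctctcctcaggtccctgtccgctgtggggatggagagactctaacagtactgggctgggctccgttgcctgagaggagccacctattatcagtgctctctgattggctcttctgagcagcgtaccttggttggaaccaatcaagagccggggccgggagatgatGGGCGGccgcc
Sv2b, chr7:75309263-75309512, minus strand: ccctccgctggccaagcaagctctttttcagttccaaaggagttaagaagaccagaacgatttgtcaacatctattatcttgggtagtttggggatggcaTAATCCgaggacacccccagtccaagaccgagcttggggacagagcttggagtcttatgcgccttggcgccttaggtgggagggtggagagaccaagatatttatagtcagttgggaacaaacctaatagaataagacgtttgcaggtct
Slc17a7, chr7:45163671-45163920, plus strand: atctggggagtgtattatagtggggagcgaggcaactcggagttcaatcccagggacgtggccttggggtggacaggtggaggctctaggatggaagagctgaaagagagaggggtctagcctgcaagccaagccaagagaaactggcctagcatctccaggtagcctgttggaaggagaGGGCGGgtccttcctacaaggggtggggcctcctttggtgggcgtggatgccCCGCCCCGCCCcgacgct
Syp, chrX:7638330-7638579, plus strand: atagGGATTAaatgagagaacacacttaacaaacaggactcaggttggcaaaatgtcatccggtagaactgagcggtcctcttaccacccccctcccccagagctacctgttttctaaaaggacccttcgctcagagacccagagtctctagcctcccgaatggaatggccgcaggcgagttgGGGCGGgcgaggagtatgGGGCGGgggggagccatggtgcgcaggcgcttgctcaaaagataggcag
Syn1, chrX:20920919-20921168, minus strand: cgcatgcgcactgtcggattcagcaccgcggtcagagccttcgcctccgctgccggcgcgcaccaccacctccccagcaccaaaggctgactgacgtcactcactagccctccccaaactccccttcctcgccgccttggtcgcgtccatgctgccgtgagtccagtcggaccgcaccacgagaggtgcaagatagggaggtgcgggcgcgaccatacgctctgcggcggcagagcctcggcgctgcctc
Syn2, chr6:115134652-115134901, plus strand: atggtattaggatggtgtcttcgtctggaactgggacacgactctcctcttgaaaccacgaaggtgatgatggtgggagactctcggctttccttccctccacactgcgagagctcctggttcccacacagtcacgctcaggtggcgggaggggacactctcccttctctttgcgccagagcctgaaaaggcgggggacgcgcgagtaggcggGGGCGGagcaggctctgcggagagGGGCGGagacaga

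The GC box occurred in 4 of the 7 windows (Syt1 with 1 match, Syp and Syn2 with 2 each, Slc17a7 with 3, of which 2 overlap by 1 base), against 32.7% of 32851 RefSeq promoter windows of the same length. TAATCC occurred in the Sv2b and Syp windows, 2 of 7, against 6.25% of all windows. CACGTG, held by 6.02% of all windows, and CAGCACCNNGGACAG, the core of the RE1 element read by the neuronal repressor REST and held by 0.0335%, occurred in none of the 7. Base composition and the level of the mark did not run in the same order: Syn1 had the highest GC content (68.0%, 27 CpG) and Syn2 held 16 CpG, yet they had the lowest P28 levels of the promoter peaks, while Syt1 held 8 CpG at a GC content of 56.4% (median of all windows 52.4% and 6 CpG). The whole window lay inside the promoter peak for Syt1, Slc17a7, Syn1 and Syn2, and 154 of its 250 bases did for Sv2b. None of the window did for Syp or Stx3, which the counts of matches include.

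At the promoters, H3K18La rose from P4 to P28 at 6 of the 8 vesicle genes with a promoter peak: Vamp2, Stx3, Snap25, Syt1, Sv2b and Slc17a7 (limma, Benjamini-Hochberg adjusted p under 0.01 over all peaks). Among promoter peaks of all protein-coding genes, 33.2% were called higher. None of the 8 was called lower. In 7 of the 8, every P28 library lay above every P4 library, but so it did in 79.5% of all promoter peaks, so this separation alone was common. The median change of the 8 was 2.18, against 1.33 for all promoters, and 6 of the 8 lay over it. Under each other scaling 6 of the 8 also lay over the median that scaling gives all promoters, which was 0.28 for reads in peaks, 0.81 for median centring and 0.70 for quantile normalization. They were not the same genes throughout: after quantile normalization Syt1 (0.32) lay below and Syn1 (0.95) above. The calls themselves depended on the scaling: with libraries scaled to reads in peaks, Sv2b alone was called (1 of 8). Without P4 replicate 1, 3 of the 8 were called.

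**Figure D1:**
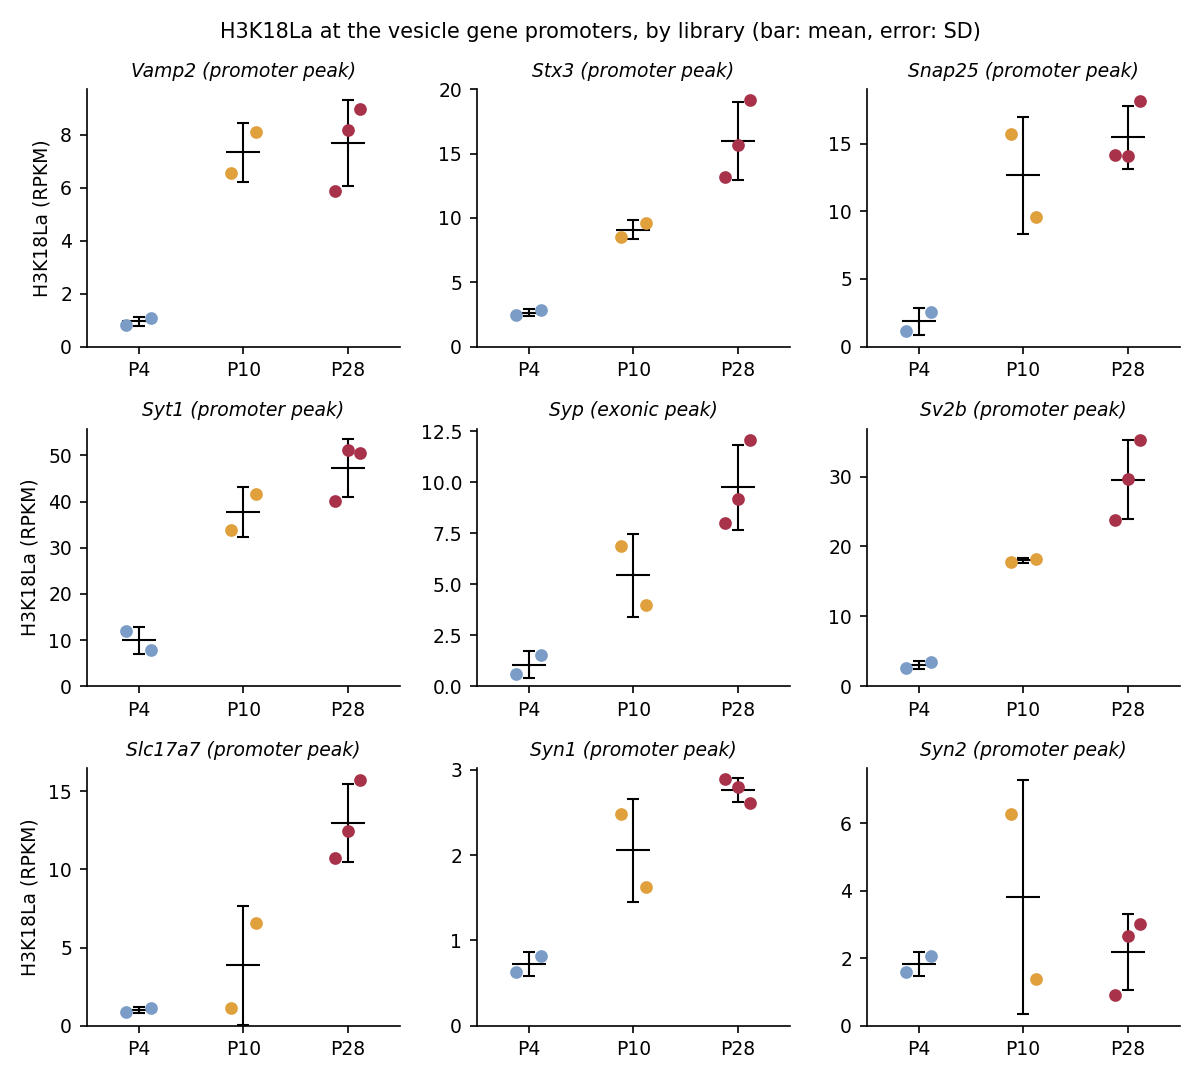
H3K18La in RPKM (vertical axis, from 0, a scale for each panel) at the promoter peak of each vesicle gene, or the exonic peak of Syp, in each of the 7 libraries by age. Points are libraries, the horizontal bar is the mean of an age and the error bar its SD (n = 2, 2 and 3); the P28 libraries lie above the P4 libraries in 8 panels and overlap them for Syn2.

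All 3 SNARE genes rose. Vamp2, the vesicle SNARE and an example that the study itself picked from these libraries, had a promoter peak at chr11:69087829-69089480 (GRCm38) that holds the start of both protein-coding transcripts. Its level was 0.825 and 1.08 RPKM in the P4 libraries, 6.56 and 8.11 at P10, and 5.88, 8.19 and 8.99 at P28. The P10 and P28 libraries overlapped, and all of them lay above P4. Vamp2 changed by 2.14 from P4 to P28 (SE 0.34, adjusted p = 0.00111) and by 2.09 from P4 to P10 (SE 0.37, adjusted p = 0.00292). The P4 libraries held 6 reads in this peak together, so the ratio of pooled reads, P28 to P4, of 8.57 had an interval of 3.90 to 23.5. Without P4 replicate 1 the P28 change had an adjusted p of 0.0135, and without P4 replicate 2 of 0.0105. A distal peak 1560 bases upstream of Vamp2 (chr11:69086005-69086930) also rose, by 2.33, and read 0.491 and 2.58 RPKM at P4, 3.90 and 6.81 at P10, and 7.93, 11.4 and 13.1 at P28.

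Stx3, the syntaxin of ribbon synapses, read 2.46 and 2.83 RPKM at P4, 8.56 and 9.61 at P10, and 13.1, 15.6 and 19.2 at P28 at its promoter peak (chr19:11817553-11819029). The ages did not overlap and stood in order of age. The change was 2.21 from P4 to P28 (SE 0.29, adjusted p = 0.000452) and 1.47 from P4 to P10 (SE 0.31, adjusted p = 0.00642). A peak in intron 1 of Stx3 (chr19:11813462-11814298), 5105 bases from the start, had a higher mean at P28: it read 1.09 and 0 RPKM at P4, 12.9 and 9.42 at P10, and 12.9, 17.9 and 23.9 at P28. This intronic peak rose by 3.69 from P4 to P28 (SE 0.40, limma) and by 3.06 from P4 to P10. The P4 libraries held 2 and 0 reads there, and the pooled ratio P28 to P4 of 30.0 had an interval of 8.26 to 249.

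Snap25, the SNARE on the cell membrane that binds with syntaxin, read 1.19 and 2.59 RPKM at P4, 15.7 and 9.60 at P10, and 14.1, 14.1 and 18.2 at P28 at its promoter peak (chr2:136713308-136714457). All later libraries lay above P4, and P10 overlapped P28. The change was 2.55 to P28 (SE 0.34, adjusted p = 0.000517) and 2.25 to P10 (SE 0.37, adjusted p = 0.00231), and without P4 replicate 1 the P28 change had an adjusted p of 0.0116. The second Snap25 promoter peak, chr2:136711880-136712798, was 655 bases upstream and rose by 2.00 from P4 to P28. The highest Snap25 peak was in intron 1, 31414 bases from the start (chr2:136744867-136745429): 10.5 and 8.48 RPKM at P4, 22.4 and 65.8 at P10, and 40.1, 41.9 and 55.2 at P28, a change of 2.15 to P28 (SE 0.40).

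Syt1, which encodes the calcium sensor of fast release, had the highest promoter level of the group at every age (chr10:109010312-109012284). It read 11.98 and 7.86 RPKM at P4, 33.9 and 41.6 at P10, and 40.0, 51.1 and 50.6 at P28. The P4 libraries lay below all others, and P10 overlapped P28. Among the 11686 promoter peaks, Syt1 already ranked 3 and 71 in the P4 libraries, then 33 and 29 at P10, and 6, 2 and 6 at P28. Its change was 2.16 from P4 to P28 (SE 0.27, adjusted p = 0.000359) and 1.84 from P4 to P10 (SE 0.29, adjusted p = 0.00188). The peak held 78 reads at P4, and the pooled ratio P28 to P4 was 4.84 (3.86 to 6.15). After quantile normalization its change to P28 was 0.32 (adjusted p = 0.257) and its change to P10 was -0.26.

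Sv2b, a glycoprotein of the vesicle membrane, had the largest change on this scale (chr7:75307690-75309416). It read 2.63 and 3.46 RPKM at P4, 17.8 and 18.3 at P10, and 23.9, 29.7 and 35.2 at P28, with no overlap between ages. The change was 2.91 from P4 to P28 (SE 0.27, adjusted p = 0.000142) and 2.24 from P4 to P10 (SE 0.30, adjusted p = 0.00104), and the P28 call held under each of the 16 alternatives. The pooled ratio P28 to P4 was 10.1 (6.49 to 16.5). The second Sv2b promoter peak (chr7:75147611-75148224), at another annotated start, read 2.22 and 0.972 RPKM at P4, 2.94 and 1.28 at P10, and 4.27, 4.10 and 4.22 at P28, and its change of 1.04 to P28 missed the threshold (adjusted p = 0.0722). The start of the noncoding gene 1500012K07Rik, on the opposite strand, lay inside the first of these peaks; CUT&Tag reads carry no strand, so signal belonging to either start cannot be told apart.

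Syp, which encodes synaptophysin, an abundant protein of the vesicle membrane, had no promoter peak in the merged set. Its only peak covered exon 3 of 7, 2258 bases past the start (chrX:7640729-7641516). This peak read 0.577 and 1.51 RPKM at P4, 6.87 and 4.002 at P10, and 7.99, 9.20 and 12.1 at P28, and the ages did not overlap. The change was 2.42 to P28 (SE 0.38, adjusted p = 0.00110); at P10 it was 1.66 with an adjusted p of 0.0124. The P4 libraries held 3 reads together, and the pooled ratio P28 to P4 of 9.84 had an interval of 3.32 to 48.1. Without P4 replicate 1 the P28 change had an adjusted p of 0.0176.

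Slc17a7, the glutamate transporter of photoreceptor and bipolar cell vesicles, had a large change from P4 to P28 and P10 libraries that disagreed (chr7:45163666-45165226). It read 0.873 and 1.15 RPKM at P4, 1.16 and 6.57 at P10, and 10.8, 12.5 and 15.7 at P28. The P10 libraries stood apart from each other, P10 replicate 1 at the P4 level with 1 read and P10 replicate 2 with 13 reads, and both lay below P28. The change from P4 to P28 was 2.79 (SE 0.49, adjusted p = 0.00199) and the pooled ratio was 13.1 (5.96 to 35.8). From P4 to P10 it was 1.01 (adjusted p = 0.184), which became 1.92 (adjusted p = 0.0042) without P10 replicate 1. From P10 to P28 it was 1.78 (adjusted p = 0.0429), which became 2.68 (adjusted p = 0.0013) without P10 replicate 2 and 0.87 (adjusted p = 0.124) without P10 replicate 1. The P28 call was lost when any P4 or P28 library was left out, with changes of 2.65 to 2.90. Its change to P28 was below that of Sv2b on the main scale but above it at a pseudocount of 0.1 (3.55 against 3.23), scaled to reads in peaks (1.71 against 1.58), after quantile normalization (2.32 against 1.74) and with voom (3.47 against 3.26). A distal peak 1353 bases upstream of Slc17a7 (chr7:45161946-45162596) read 1.40 and 3.67 RPKM at P4, 0 and 3.63 at P10, and 9.27, 12.2 and 13.0 at P28, and its change of 1.89 to P28 had an adjusted p of 0.0288.

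The synapsins, which tether vesicles to each other and to actin, had the lowest mean levels of the 9 genes at P28. Syn1 (chrX:20920261-20921713) read 0.625 and 0.821 RPKM at P4, 2.48 and 1.63 at P10, and 2.89, 2.79 and 2.61 at P28. The libraries of the later ages lay above P4, and the change to P28 of 1.13 missed the threshold (SE 0.41, adjusted p = 0.0505). Each P4 library held 2 reads there, and the pooled ratio of 3.90 had an interval of 1.48 to 14.6. Syn2 (chr6:115134613-115135187) read 1.58 and 2.08 RPKM at P4, 6.28 and 1.37 at P10, and 0.913, 2.67 and 3.00 at P28, and the ages overlapped. Its change to P28 was 0.11 (SE 0.56, adjusted p = 0.885); the value turned negative under other scalings, to -0.97 with libraries scaled to reads in peaks. The pooled ratio of 1.39 had an interval of 0.498 to 5.35, which spans both a fall and a gain. The Syn2 peak also holds the start of Gm17733, a noncoding RNA that runs the other way.

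Per length, the order of P28 levels was Syt1 (47.2 ± 6.26 RPKM, SD, n = 3), Sv2b (29.6 ± 5.68), Stx3 (15.99 ± 3.03), Snap25 (15.5 ± 2.34), Slc17a7 (13.0 ± 2.51), Syp at its exon (9.75 ± 2.09), Vamp2 (7.68 ± 1.62), Syn1 (2.77 ± 0.14) and Syn2 (2.20 ± 1.12). The libraries of Syt1 and Sv2b did not overlap, nor did those of Sv2b and Stx3 or of Vamp2 and Syn1. From Stx3 down to Vamp2 the range of each neighbour overlapped the next, and so did those of the synapsins. Within every P28 library, though, Snap25 stood above Slc17a7, Slc17a7 above Syp and Syp above Vamp2. The order of Stx3 and Snap25, and that of the synapsins, changed between P28 libraries. At P4, Syn2 at 1.83 ± 0.35 RPKM (n = 2) overlapped Snap25 at 1.89 ± 1.00.

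Ranks within a library do not depend on how libraries are scaled against each other. Against the 11686 promoter peaks, the mean percentile of Vamp2 went from 29.9 at P4 to 84.5 at P10 and 70.5 at P28, and that of Snap25 from 56.3 to 93.3 and 92.7. Slc17a7 went from 31.7 to 54.9 and 88.5, Sv2b from 81.4 to 97.7 and 99.3, and Stx3 from 75.7 to 89.5 and 93.2. The synapsins did not follow: Syn1 was at 22.2, 38.6 and 24.1, and Syn2 at 57.2, 52.2 and 16.4. At P28 the Syn2 libraries stood at 4.1, 22.3 and 22.6, all below its P4 libraries at 52.0 and 62.4, although few reads make P4 ranks coarse: each P4 library held 2 reads for Syn1 and Syn2 and 3 for Vamp2 and Slc17a7.

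**Figure D2:**
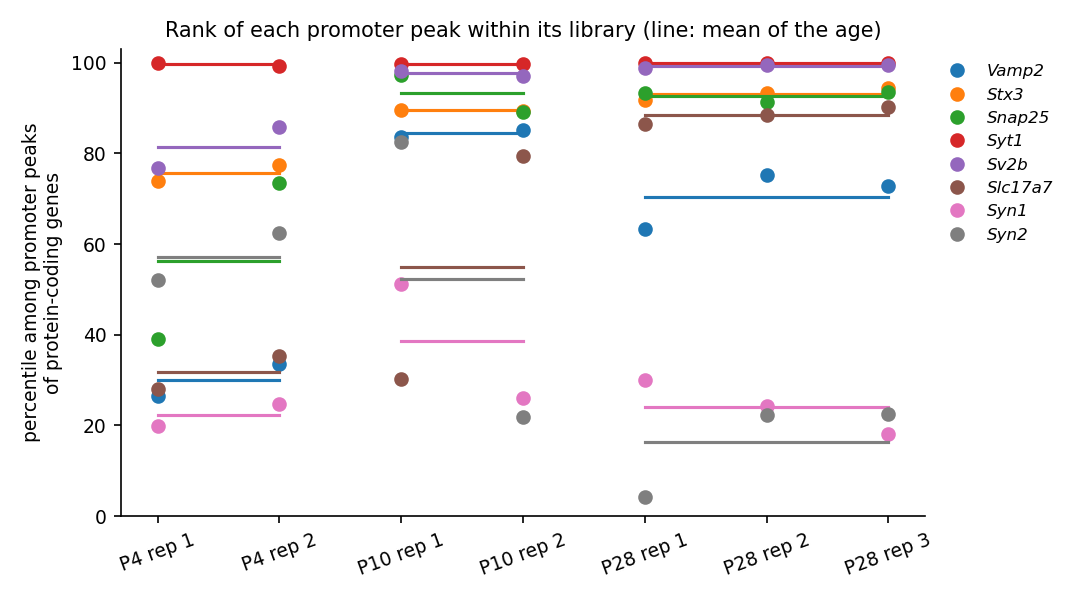
Percentile of each promoter peak among 11686 promoter peaks, 1 for each protein-coding gene that has one (vertical axis) in each library (horizontal axis); points are libraries and lines the mean of an age. Vamp2, Snap25, Slc17a7, Sv2b and Stx3 stand higher at P28 than at P4, Syt1 stays at the top, and Syn2 falls from 57.2 to 16.4.

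By P10 part of the gain was in place. From P4 to P10, 5 of the 8 promoter peaks rose (Vamp2, Stx3, Snap25, Syt1 and Sv2b), where 11.8% of all promoter peaks were called, and all 8 changed by more than the promoter median of 0.54. In 7 of the 8, each P10 library lay above each P4 library, against 46% of all promoter peaks. From P10 to P28 limma called 0 of the 8 (0% of all promoter peaks), 3 had an unadjusted p under 0.05 (Stx3, Sv2b and Slc17a7), as did 4595 of the 11686 promoter peaks, a like share, and voom on recovered reads also called 0. In 4 of the 8, each P28 library lay above each P10 library, against 54.6% of all promoter peaks, and 2 of the 8 changed by more than the promoter median of 0.73. The P10 mean, as a share of the P28 mean, was 95.5% for Vamp2, 81.7% for Snap25, 79.8% for Syt1, 60.9% for Sv2b, 56.8% for Stx3 and 29.7% for Slc17a7. These are shares of the level, which include the P4 level, and that of Slc17a7 averages 1 read in P10 replicate 1 with 13 in P10 replicate 2. The P10 changes of the 5 called genes were 1.47 (Stx3) to 2.25 (Snap25). Without P4 replicate 1 they were 1.40 (Stx3) to 2.12 (Syt1). With the P4 and P10 libraries fitted alone they did not change, and each had an adjusted p of 0.0621 (limma). The P10 calls rest on few libraries: none of the 8 was called without P4 replicate 1 or when the P4 and P10 libraries were fitted alone, 1 without P4 replicate 2, 3 without P28 replicate 2, and 1 with libraries scaled to reads in peaks or after quantile normalization.

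**Figure D3:**
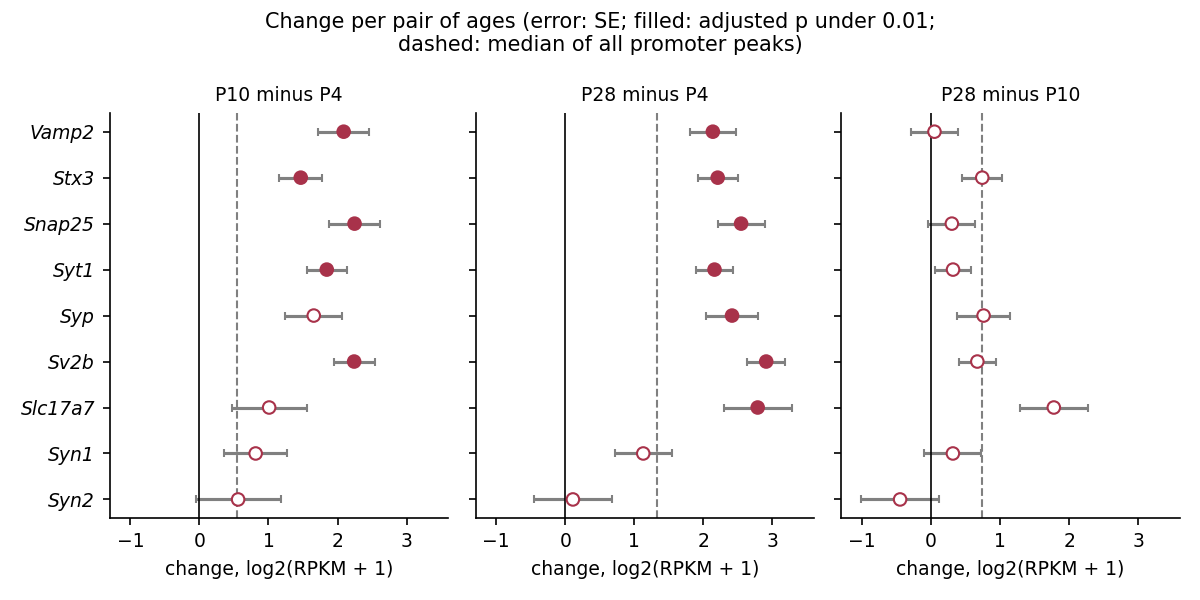
Change in log2(RPKM + 1) (horizontal axis) for each vesicle gene in the 3 pairs of ages, with its SE; filled points are called at an adjusted p under 0.01 and the dashed line is the median of all promoter peaks. In P10 minus P4 the promoter peaks lie right of that median of 0.54, and in P28 minus P10 Slc17a7, at 1.78, lies farthest right.

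Outside the promoters, the vesicle genes held 90 intronic, 13 distal and 4 other peaks. Of all 117 peaks, 41 were called higher and 0 lower from P4 to P28, where 18.9% of all peaks were called higher and 4.21% lower; at an unadjusted p under 0.05 there were 77, against 56043 of all 108253 peaks, and voom called 62 higher and 2 lower. The count was 10 without P4 replicate 1, 16 without P4 replicate 2, 19 to 24 without 1 P28 library, 67 or 68 without 1 P10 library, and 17 (14 higher and 3 lower) with libraries scaled to reads in peaks. From P4 to P10, 22 were called higher (11.4% of all peaks) and 1 lower (7.34% of all peaks), and from P10 to P28 none was called (0.00185% of all peaks, 40 at an unadjusted p under 0.05, as were 35202 of all 108253 peaks, a like share). Peaks of 1 gene share its chromatin and are not independent of each other. Sv2b and Syt1 held 89 of the 117 and 29 of the 41 calls, and the other 7 genes 28 peaks with 12 calls. The median change of the 90 intronic peaks was 1.58, against 0.76 for all 45481 intronic peaks.

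In Sv2b the median change was larger within 50 kb of the start than farther into the gene, a difference that was not tested. All 44 peaks had a positive change from P4 to P28, as did 72030 of all 108253 peaks. Of the 17 peaks 1 to 50 kb into the gene from the TSS of its main transcript, measured to the middle of the peak, 11 were called, with a median change of 2.12 and a median P28 level of 15.9 RPKM. Of the 16 peaks 50 to 150 kb in, 5 were called (median change 1.44, median P28 level 6.25 RPKM). Of the 9 beyond, 3 were called (1.18 and 4.73 RPKM). Over all intronic peaks, 19.5% were called higher. The highest Sv2b peak, in intron 1 at chr7:75277582-75278304, was 30958 bases from the start and read 2.51 and 8.25 RPKM at P4, 7.49 and 35.98 at P10, and 49.7, 46.1 and 56.4 at P28. It rose by 3.18 (SE 0.57) and stood above the Sv2b promoter in each P28 library.

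Syt1 was laid out differently. The 5 peaks 1 to 50 kb into the gene held 0 calls, a median change of 1.20 and a median P28 level of 3.37 RPKM. Of the 8 peaks more than 1 kb upstream of the start, all distal, 1 was called, a share near the 11.8% of all distal peaks called higher. The median change of these 8 was 1.42, against 0.099 for all distal peaks. The mean P28 levels of these 8 ran from 1.91 to 11.5 RPKM, below the promoter at 47.2 RPKM. A called peak (chr10:108960216-108961291) lay at the limit, with its near edge 49691 bases from the start and its middle past 50 kb. Of the 12 peaks 50 to 150 kb in, 4 were called, and of the 19 beyond, 3 were, where 19.5% of all intronic peaks were called higher. The highest of these, an intronic peak 330522 bases from the start (chr10:108679112-108680460), read 1.68 and 3.54 RPKM at P4, 12.04 and 11.1 at P10, and 21.98, 22.4 and 34.2 at P28, a change of 2.93 (SE 0.33). It was singled out after its values were seen. The distance limits were set with the peak positions known, and the difference between the layouts of Sv2b and Syt1 was not tested.

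**Figure D4:**
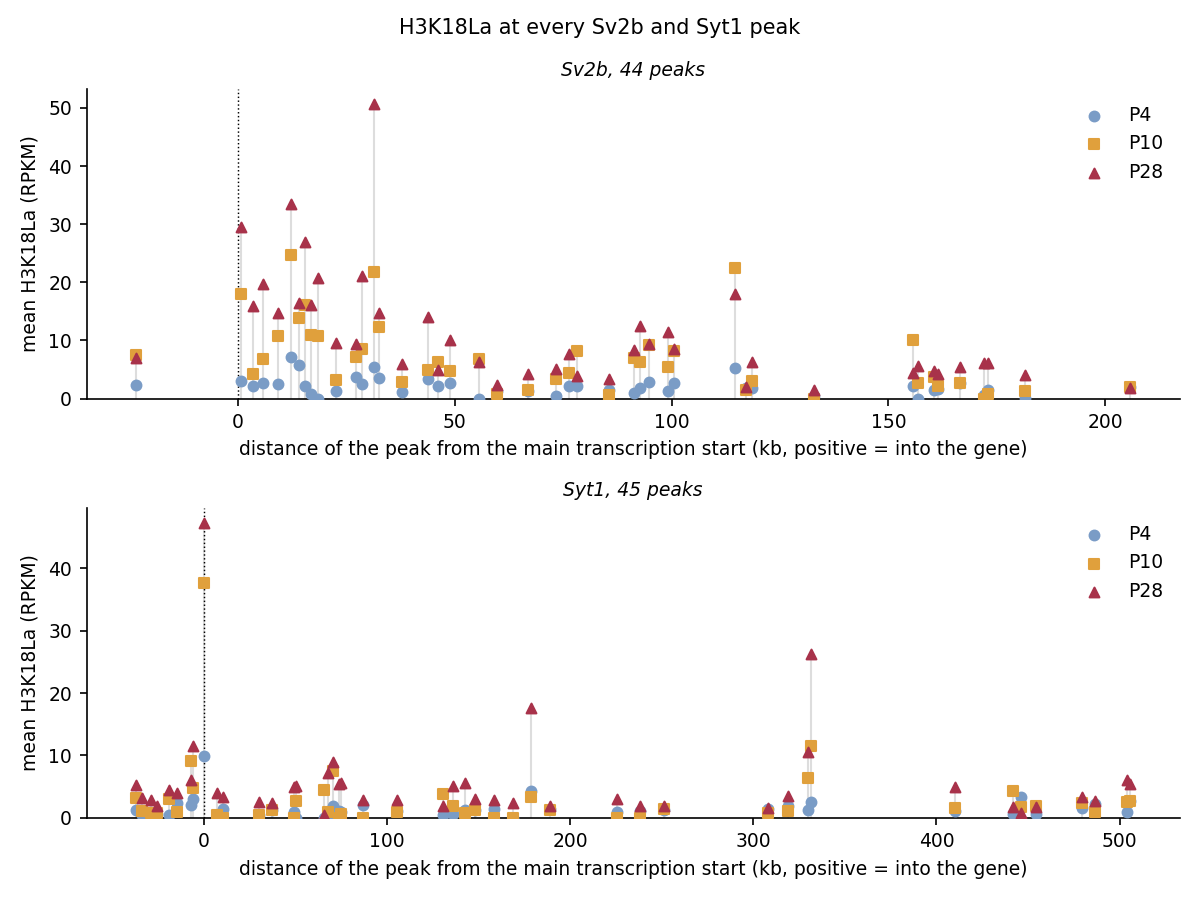
Mean H3K18La in RPKM (vertical axis) at each of the 44 Sv2b and 45 Syt1 peaks against distance from the main TSS in kb (horizontal axis, positive into the gene), at P4 (circles), P10 (squares) and P28 (triangles). The highest Sv2b peaks at P28 lie within 50 kb of the start, whereas at Syt1 the promoter, at 47.2 RPKM, stands above all other peaks.

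Falls were few under the deposited scaling, where 113 of the 117 changes from P4 to P28 were positive, as were 72030 of all 108253. The 113 became 104 after median centring, 97 after quantile normalization and 86 scaled to reads in peaks. The median change of all peaks was 0.68 under the deposited scaling, and 0.16, 0.091 and -0.29 under those 3. The largest fall in Syt1 was in intron 9 (chr10:108564283-108564992): 3.20 and 3.36 RPKM at P4, 0 and 3.33 at P10, and 0, 1.39 and 0.730 at P28, a change of -1.42 (SE 0.64, limma adjusted p = 0.0989). In Syn2 an exonic peak (chr6:115263774-115264165) read 1.16 and 3.04 RPKM at P4, 0 and 2.01 at P10, and 0.669, 0.627 and 0 at P28, a change of -1.08 (SE 0.52, adjusted p = 0.116). Neither passed the threshold. The single peak called lower at P10, in the 3′ UTR of Snap25 (chr2:136780943-136781285), read 5.30 and 5.22 RPKM at P4, 0 in both P10 libraries, and 3.06, 3.76 and 4.53 at P28. Its change from P4 to P10 was -2.65 (adjusted p = 0.00210), and to P28 it was -0.40 (adjusted p = 0.427). The P4 libraries held 7 reads there and the P10 libraries 0, and the interval of the pooled ratio, P10 to P4, ran from 0 to 1.48, which includes 1.

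The centres of the highest intronic peaks are printed as 200 bases of the plus strand (GRCm38.p6), because at Stx3, Snap25 and Sv2b their mean P28 level stood above that of the promoter. Capitals mark TAATCC on either strand.
Stx3 intron 1, chr19:11813781-11813980: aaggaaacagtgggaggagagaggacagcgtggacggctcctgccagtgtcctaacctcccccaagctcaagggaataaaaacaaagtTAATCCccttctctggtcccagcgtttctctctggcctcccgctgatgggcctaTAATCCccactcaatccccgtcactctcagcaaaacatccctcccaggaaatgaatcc
Snap25 intron 1, chr2:136745049-136745248: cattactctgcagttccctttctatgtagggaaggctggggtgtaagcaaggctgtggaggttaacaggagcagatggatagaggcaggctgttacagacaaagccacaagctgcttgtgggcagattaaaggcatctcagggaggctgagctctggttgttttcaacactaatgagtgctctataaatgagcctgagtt
Sv2b intron 1, chr7:75277844-75278043: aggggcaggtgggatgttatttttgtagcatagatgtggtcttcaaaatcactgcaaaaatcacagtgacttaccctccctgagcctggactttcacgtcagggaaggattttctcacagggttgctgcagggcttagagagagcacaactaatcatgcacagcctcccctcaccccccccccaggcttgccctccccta
The Stx3 centre held 2 matches and the Snap25 and Sv2b centres none. Over the 90 intronic peaks of the group, 8 centres held TAATCC (8.89%), against 9.01% of the centres of 45481 intronic peaks, so the match was about as frequent as elsewhere. The GC box was in 0 of the 90 (3.4% of all) and CACGTG in 4 (4.44%, against 2.98%).

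With the reads of all peaks of a gene summed, 8 of the 9 genes were higher at P28 than at P4 (33.7% of 25400 gene symbols), Syn2 being the exception. The largest total change was that of Slc17a7 at 2.47 (SE 0.47, adjusted p = 0.00229), followed by Stx3 at 2.43 (SE 0.23) and Syp at 2.42 (SE 0.30). Syn1, which has a single peak, passed here at 1.13, with an SE of 0.27 in the fit over gene totals against 0.41 in the fit over peaks (adjusted p = 0.00670). Syn2 changed by 0.21 (SE 0.28, adjusted p = 0.535). From P4 to P10 the totals of 5 genes rose (16.5% of all symbols): Vamp2, Stx3, Snap25, Syp and Sv2b. The Syp total is its single exonic peak, with the same change of 1.66. It passed here (limma, adjusted p = 0.00438) with an SE of 0.33, against 0.41 in the fit over peaks, where it missed the threshold. The Syt1 total changed by 0.93 at P10 (adjusted p = 0.0198). With libraries scaled to reads in peaks 4 of the 9 totals were called at P28, and without either P4 library 5.

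The rest of the vesicle machinery was read from a list of 63 other genes in 7 roles, of which 51 had a promoter peak. From P4 to P28, 24 of the 51 rose and 0 fell, where 33.2% of all promoter peaks rose, and their median was 1.55. By P10, 11 of the 51 had risen, against 11.8% of all promoter peaks. The count at P28 was 8 without P4 replicate 1, 13 without P4 replicate 2, 13 or 14 without 1 P28 library, 32 without either P10 library, and 8 (7 higher and 1 lower) with libraries scaled to reads in peaks.

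By role, vesicle membrane proteins and recycling had the largest medians. Of 7 vesicle membrane genes 6 rose, with a median of 2.32. Sv2a, the close relative of Sv2b, changed the most at 3.103 (SE 0.47; 0 and 1.80 RPKM at P4, 5.44 and 9.50 at P10, 13.4, 9.997 and 17.7 at P28), and Syngr2, a synaptogyrin, the least at 0.46 (adjusted p = 0.401). The Sv2a peak held few reads: 0 and 1 in the P4 libraries, and 1 and 4 in the P10 libraries. Of 6 recycling genes 5 rose, with a median of 2.26, from Snap91, a clathrin adaptor, at 1.56 (adjusted p = 0.0197) to Dnm1, the dynamin that pinches vesicles off, at 2.83 (0.566 and 0.744 RPKM at P4, 11.3 and 8.11 at P10, 11.1, 9.94 and 11.4 at P28).

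Of 15 SNARE regulators 8 rose, with a median of 1.86. The largest change was that of Cplx4, a complexin of ribbon synapses, at 2.90 (2.55 and 0.838 RPKM at P4, 11.4 and 7.74 at P10, 12.7, 19.3 and 24.0 at P28), and the smallest that of Unc13c, a priming factor, at -0.24 (adjusted p = 0.705). Of 10 calcium sensors 3 rose, a share near the 33.2% of all promoter peaks, with a median of 0.93 that lay below the 1.33 of all promoters, from Syt6 at 0.27 to Doc2b at 3.01 (1.70 and 2.60 RPKM at P4, 17.99 and 20.1 at P10, 22.9, 22.4 and 27.6 at P28). Of 7 further SNARE genes 1 rose, Snap23 at 1.74, named after its value was seen. Among these 7, Vamp3 had the largest change, 1.92, at an adjusted p of 0.0128.

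In the synapsin and tethering group 1 of 5 rose, Rab3a, the small GTPase of vesicle docking, at 2.24 (SE 0.30); Rab3b was lowest at 0.29. Of the 5 other transmitter transporters only Slc32a1, which loads GABA and glycine, had a promoter peak. It read 2.74 and 1.20 RPKM at P4, 0 in both P10 libraries, and 2.11, 1.73 and 2.43 at P28, a change of 0.10 to P28 (adjusted p = 0.858).

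**Figure D5:**
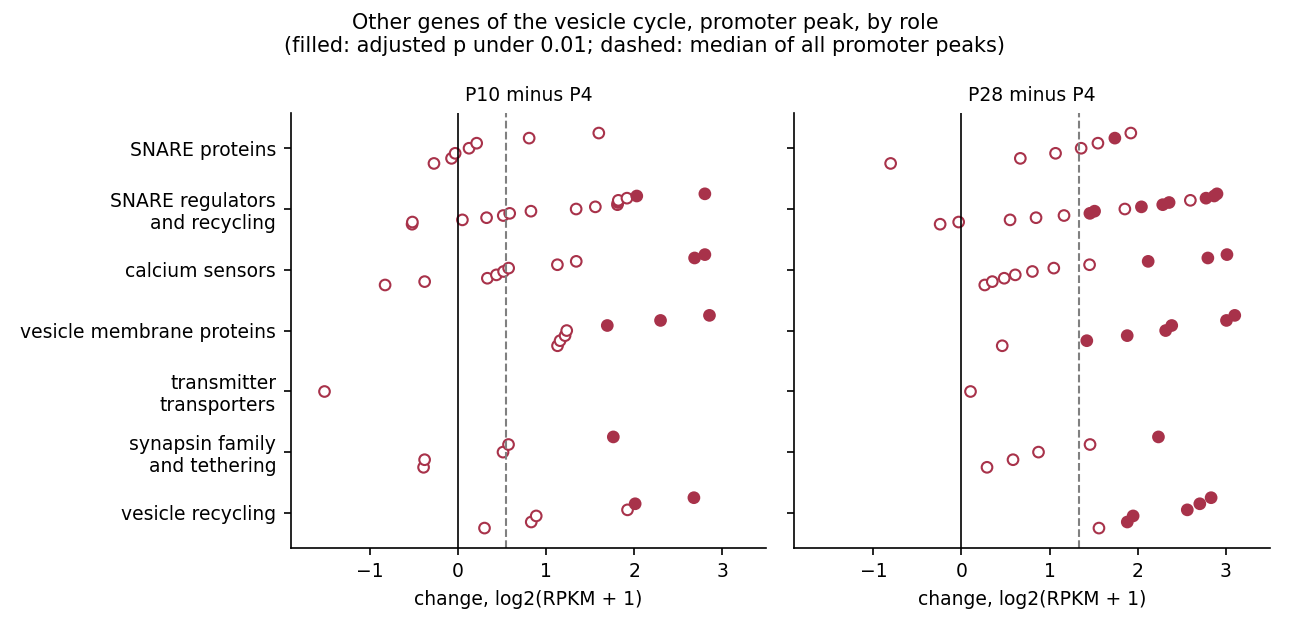
Change in log2(RPKM + 1) (horizontal axis) at the promoter peak of 51 other genes of the vesicle cycle, by role, from P4 to P10 and from P4 to P28; filled points are called at an adjusted p under 0.01 and the dashed line is the median of all promoter peaks. Vesicle membrane and recycling genes lie mostly right of that median of 1.33 at P28.

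Of 27 cell type markers, 18 had a promoter peak. From P4 to P28, 7 of the 18 were called higher and 0 lower, where 33.2% of all promoter peaks were called higher. From P4 to P10, 6 of the 18 were called higher, against 11.8% of all promoter peaks. The median change of the 18 to P28 was 0.84, below the 1.33 of all promoters. All 5 photoreceptor markers examined (Crx, Nrl, Nr2e3, Rcvrn and Gnat1) had a promoter peak, and all 5 rose at P10 and at P28. Their summed level was 13.3 and 14.2 RPKM at P4, 106 to 125 at P10 and 74.2 to 107 at P28. Nr2e3 held the largest part of the sum, with means of 7.21, 64.4 and 33.0 RPKM. From P10 to P28 the means of Nr2e3 and Nrl fell, while those of Crx, Rcvrn and Gnat1 rose. None of 4 bipolar markers was called, with sums of 3.77 to 4.96 RPKM at P4, 0.545 to 2.47 at P10 and 7.82 to 11.1 at P28, and Trpm1 and Cabp5 were listed at 0 in both P10 libraries. Of 2 amacrine markers with a promoter peak Slc6a9 rose, while Gad1 changed by -0.54 from P4 to P28 (adjusted p = 0.455) with each P28 library below each P4 library. Their sums were 3.26 to 4.28 RPKM at P4, 7.24 to 16.6 at P10 and 12.4 to 18.04 at P28. The 2 measured ganglion cell markers of 4 summed to 5.88 to 7.82 RPKM at P4, 3.48 to 5.63 at P10 and 1.47 to 4.10 at P28. Of 3 Mueller glia markers Glul rose, and their sum was 5.61 to 6.89 RPKM at P4, 13.7 to 14.8 at P10 and 15.2 to 19.9 at P28. Pigment epithelium and vessel or microglia markers had 1 measured promoter each, at or below 7.44 RPKM. In whole retina, more cells carrying the mark and more mark per cell cannot be told apart, and the part of cell composition in the vesicle gene results was not tested.

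The promoters most like the mean profile of the 8 vesicle promoters, by root mean square difference of log2(RPKM + 1) over the 7 libraries, were Dnajb5 (0.109), Tspan7 (0.137), Mnt (0.139), Ybx3 (0.147) and Arid1b (0.150). Dnajb5, a cochaperone, read 2.16 and 2.20 RPKM at P4, 8.57 and 9.15 at P10, and 9.82, 12.2 and 12.02 at P28. Of the vesicle genes themselves Stx3 was nearest to their mean profile (0.334), followed by Snap25 (0.476) and Vamp2 (0.505). Syt1 (1.97), Syn2 (1.53) and Syn1 (1.48) were farthest, Syt1 above it and the synapsins below it at P28.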

How the data were processed

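The 7 retina libraries were CUT&Tag libraries against H3K18La. Per the labels and the study's methods, the authors aligned reads to GRCm38, called peaks with MACS (-log10 q above 6 in at least 2 replicates), merged the ages, annotated peaks with ChIPseeker 1.34.1 (promoter: 1000 bases before to 500 after the start) and normalized with windows of 10000 bases. The deposited values are RPKM per peak, made by the authors from counts and those library sizes. A table of the authors' own fold changes and p-values was not used.

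All 108253 peaks were fitted in R 4.3.3 by limma 3.58.1, on the log2(RPKM + 1) scale, with a mean-variance trend, all 7 libraries and 3 contrasts. Benjamini-Hochberg adjusted p-values ran over all peaks, and a peak was called at an adjusted p under 0.01. RPKM gave whole reads, to within 0.01 of a read, in 100% of peaks. Gene totals were the summed reads of a symbol's peaks. At the median peak width, 3 reads are worth 0.244 to 7.15 RPKM. The P4 libraries differed by no more than sampling noise over peaks (chi-square per degree of freedom 0.962) but by more over 1 Mb bins (1.21), and were counted as 2 replicates. The members and gene lists were chosen with earlier results of these data known. Members, the extremes of each role and the 5 nearest promoters were named; exceptions are said in place, and 1 gene is not reported here. Alternatives covered the pseudocount, a read filter, scalings, voom, the replicate block, each library left out, the 2 ages alone and the threshold.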

Additional observations from a re-analysis of the deposited data

How the results depend on the processing

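With libraries scaled to reads in peaks, calls from P4 to P28 were 1 of 8 promoter peaks, 17 of 117 peaks, 4 of 9 gene totals and 8 of 51 other vesicle genes, and from P4 to P10 1 of 8 promoter peaks. The change from P4 to P10 was called at 1 promoter peak after quantile normalization and at 0 with the 2 ages alone. The 41 calls over all peaks became 27 at a pseudocount of 0.1, 64 with voom (chosen after seeing the data), 68 with the 2 ages alone and 63 at an adjusted p under 0.05, where P28 against P10 gave 1 promoter call. Leaving out 1 library in turn gave 3 to 6 promoter calls from P4 to P28, 0 to 6 from P4 to P10 and 0 to 1 from P10 to P28, 10 to 68 peaks, 5 to 8 gene totals and 8 to 32 other vesicle genes.

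Signs turned for these changes. Syn2 from P4 to P28 was -0.97 scaled to reads in peaks, -0.41 after median centring and -0.54 after quantile normalization, and -0.088 to 0.44 with 1 library left out. Syn2 from P4 to P10 was -0.36 scaled to reads in peaks and -0.25 to 1.37 with 1 library left out; from P10 to P28 it was -1.26 to 0.36. Vamp2 from P10 to P28 was -0.12, -0.23 and -0.053 under those 3 scalings and -0.087 to 0.21 with 1 library left out, and Snap25 -0.029 to 0.63. Syt1 from P4 to P10, a called change of 1.84, was -0.26 after quantile normalization. The causes were not tested.

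Same-numbered libraries of different ages share only a number: their deviations correlated at -0.0010 to 0.0469 in 6 pairs. With the replicate block 27 of 117 peaks were called from P4 to P28, Syn2 changed by -0.088 from P4 to P28 and Vamp2 by -0.062 from P10 to P28, and promoter calls stayed at 6, 5 and 0. P28 replicate 1 is the only library of its batch, so leaving it out is the within-batch fit. The planned edgeR alternative was not run, and voom on the recovered reads took its place. Depth limits P4 and P10: 71 of the 117 peaks held at most 3 reads in every P4 library, 61 at P10 and 2 at P28.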

Other observations

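Among the complexins, which clamp and promote fusion, Cplx2 and Cplx3 had their highest mean level at P10. Cplx2 read 3.59 and 6.29 RPKM at P4, 15.9 and 23.6 at P10, and 4.38, 4.10 and 5.62 at P28. Its P10 libraries lay above all others, and its change from P10 to P28 of -1.85 missed the threshold (limma, adjusted p = 0.0133). Cplx3, a complexin of ribbon synapses, read 2.54 and 3.14 RPKM at P4, 27.4 and 24.1 at P10, and 16.3, 17.9 and 22.2 at P28. Cplx1 changed by 0.55 from P4 to P28 (limma, adjusted p = 0.445). Differences between the complexins were not tested. Cplx1, Cplx2 and Cplx3 were named after their values were seen.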
